A study of Mus musculus with 24 samples.

Results

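AS1842856 is a small molecule known as an inhibitor of the transcription factor FOXO1, and the title of the series describes it as acting on both FOXO1 and the kinase GSK3. The comparison described here sets murine B-cell acute lymphoblastic leukemia (B-ALL) cells kept for 48 h in 70 nM AS1842856 against the same cells kept for 48 h in a matching amount of DMSO, its solvent. It holds 6 of the 24 RNA sequencing libraries of the series, 3 with the compound and 3 with DMSO. Of 41444 gene rows, 20000 had values and 11470 were tested, namely those whose deposited mean log2 value over all libraries was at least 3.46, a normalised count of 10 if that column is the log2 of the count plus 1. The other groups used below were cells given the compound or DMSO for 24 h, and cells given 200 nM 4-OHT (4-hydroxytamoxifen) or its solvent EtOH for 48 h. Every group, DMSO included, was made of BCR-ABL1+ Cre-ERT2 Foxo1 fl/fl cells, which carry the BCR-ABL1 fusion kinase, floxed Foxo1 alleles and a Cre recombinase that 4-OHT switches on. The labels give bone marrow as the tissue and do not state whether the cells are 1 clone, what drives the Cre, or whether libraries of a group came from separate cultures. A p-value below therefore speaks of library-to-library spread alone, and that spread may be technical.

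FOXO1 is a transcription factor that PI3K and AKT signalling holds out of the nucleus. In early B cells it is required for lineage progression and for expression of the recombinase genes Rag1 and Rag2, and in many cell types it raises genes of growth restraint and of insulin receptor feedback. GSK3 is a kinase that marks beta-catenin, MYC and D-type cyclins for destruction, so that its inhibition is known to stabilise these proteins. Neither activity is read directly from RNA.

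All values are log2 levels as the authors deposited them, after normalisation, and differences are compound minus DMSO on that scale. The median level over tested genes ranged from 9.16 to 9.23 across the 24 libraries. Over tested genes, DMSO replicate 1 stood apart from its group, at root mean square distances of 0.272 and 0.275 from the other DMSO libraries, which were 0.166 from each other, while the compound libraries were 0.169 to 0.202 apart. Of 34 B-lineage genes listed, 33 were tested, among them Pax5, which had 13.01, 13.00 and 12.74 in compound cells and 13.33, 13.37 and 13.20 in DMSO cells. The values are not counts, so the sequencing depth is unknown.

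A small share of the tested genes passed the threshold for AS1842856 against DMSO at 48 h. In limma with Benjamini-Hochberg adjustment over all tested genes, 557 of 11470 genes passed an adjusted p of 0.05 (4.86%), of which 216 rose (1.88%) and 341 fell (2.97%). In the same fit 2396 genes had an unadjusted p under 0.05, so the called share need not be the share that changed. Most called changes were modest. The median absolute difference of the called genes was 0.40, and 23 of them differed by at least 1, with 11 higher and 12 lower. Among genes at or above the median level of 9.23, 98 rose and 256 fell, whereas below it 118 rose and 85 fell. In none of the 557 genes did the compound and DMSO libraries overlap, which was also so for 26.9% of all tested genes. Fitting the replicate number as a block gave 1629 called genes (14.2%), with 764 higher (6.66%) and 865 lower (7.54%), and these included all 557. The count depended on single libraries: it was 166, 161 and 108 without compound replicate 1, 2 or 3, and 901, 192 and 168 without DMSO replicate 1, 2 or 3.

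Gng4 (ENSMUSG00000021303), a G-protein gamma subunit gene on chromosome 13 at 13784059 to 13827896 of GRCm38, fell furthest. It had 7.33, 7.44 and 7.45 in compound cells, against 9.60, 9.52 and 9.40 in DMSO cells. The difference of -2.10 ± 0.08 (SE, n = 3 each; adjusted p = 9.01e-05, limma) was far larger than the spread within either group. Klhl24, a Kelch-family adaptor of ubiquitin ligases, had 9.91, 9.70 and 9.60 with the compound and 11.13, 10.64 and 10.70 with DMSO, and fell by 1.08 ± 0.14 (adjusted p = 0.00811). Gfra2, a co-receptor for the growth factor neurturin, had 9.43, 9.72 and 9.65 in compound cells and 10.57, 10.72 and 10.71 in DMSO cells, a fall of 1.07 (adjusted p = 0.00208). Ubald2 had 9.91, 9.85 and 9.85 with the compound and 10.88, 10.79 and 10.75 with DMSO. Its libraries were among the most even within groups, and the difference of -0.93 ± 0.05 had an adjusted p of 7.52e-04. Crebrf, a regulator of the stress factor CREB3, fell by 1.15 ± 0.21 (adjusted p = 0.0269), and compound replicate 1 at 8.96 stood above replicates 2 and 3 at 8.29 and 8.15. Pdcd4, which restrains translation initiation, had 9.44, 9.08 and 9.07 with the compound and 10.66, 9.95 and 10.03 with DMSO, so that in both groups replicate 1 was the highest library. Its difference was -1.02 ± 0.19 (adjusted p = 0.0289). The other genes among the 12 largest falls were Drc7 (-1.04), the synaptic vesicle gene Cplx2 (-0.93), Fbxl20 (-0.92), the PI3K subunit gene Pik3cg (-0.86), the purine salvage gene Pnp (-0.83), which has a near-identical neighbour and is uncertain for that reason, and Bckdha of branched-chain amino acid breakdown (-0.83). Calls for 9 of these 12 genes held whichever library was left out. Without compound replicate 2, Crebrf, Pdcd4 and Fbxl20 were not called (highest adjusted p over all left-out libraries, 0.131).

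The 12 largest rises at or above the median level were smaller than the falls. Pld4, an endolysosomal exonuclease of B cells and dendritic cells, had 10.82, 10.49 and 10.39 in compound cells and 9.98, 9.47 and 9.38 in DMSO cells, and rose by 0.96 ± 0.17 (adjusted p = 0.0258). Ttll11, which adds glutamate chains to tubulin, had 10.10, 10.23 and 10.11 with the compound and 9.40, 9.08 and 9.14 with DMSO, a difference of 0.94 ± 0.09 (adjusted p = 0.00509). Prr5, a component of mTOR complex 2, had 9.94, 9.77 and 10.13 in compound cells and 9.004, 9.07 and 9.05 in DMSO cells. It rose by 0.91 ± 0.09 (adjusted p = 0.00533), and the lowest compound library was well above the highest DMSO library. Bhlhe40, a transcriptional repressor tied to the clock and to lymphocyte activation, had 9.67, 9.59 and 9.85 with the compound and 8.98, 8.74 and 8.68 with DMSO (0.90 ± 0.10, adjusted p = 0.0065). Ero1l, the oxidase that forms disulfide bonds in the endoplasmic reticulum, had 11.38, 11.19 and 11.41 in compound cells and 10.68, 10.57 and 10.73 in DMSO cells (0.66 ± 0.07, adjusted p = 0.00626). The selenoprotein gene Vimp of the same compartment rose by 0.59 ± 0.05 (adjusted p = 0.00349). The kinase gene Sbk1 rose by 0.90 ± 0.20, close to the threshold (adjusted p = 0.0493). The remaining rises were the activation marker Cd69 (0.75), the pseudokinase gene Trib3 (0.74), Emid1 (0.65), the fatty acid binding protein gene Fabp5 (0.58) and Atf5 (0.56). Calls for Ttll11, Prr5, Bhlhe40, Ero1l, Emid1 and Vimp held without any 1 library, and the other 6 were lost without compound replicate 3, with adjusted p up to 0.157 over the left-out libraries.

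**Figure D1:**
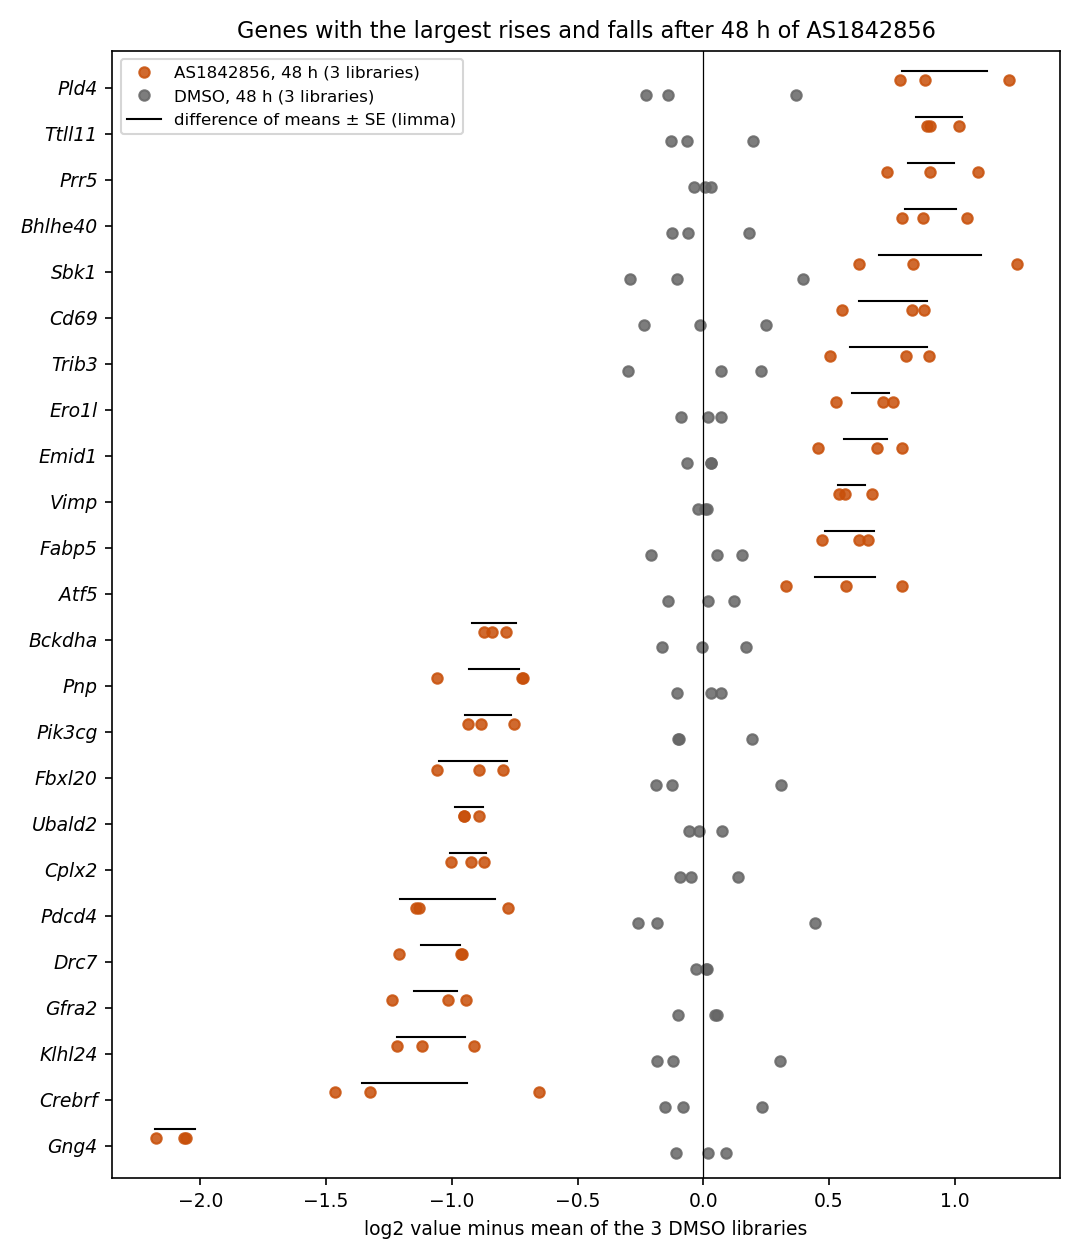
Log2 value of each library minus the mean of the 3 DMSO libraries at 48 h (horizontal axis), for the 12 largest rises and 12 largest falls at or above the median level, with AS1842856 libraries in orange, DMSO libraries in grey and the difference of means ± SE as a black line. No overlap between compound and DMSO libraries was a condition for choosing these rows, and 26.9% of all tested genes had none. Gng4 has the widest gap, with a difference of -2.10.

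Among called genes below the median level the changes were wider. Igkc, the immunoglobulin kappa constant region, had 8.997, 8.26 and 8.74 in compound cells and 7.48, 6.81 and 6.85 in DMSO cells, a rise of 1.62 ± 0.23 (adjusted p = 0.0119). Tsc22d1, a leucine zipper factor gene, rose by 1.438 ± 0.17 (adjusted p = 0.00712). The costimulatory receptor gene Cd28, best known in T cells, had 9.42, 8.82 and 9.31 with the compound and 7.94, 7.46 and 7.91 with DMSO (1.41 ± 0.18, adjusted p = 0.00877). The lysolipid transporter gene Spns3 rose by 1.23. Of the falls, Syndig1l changed by -1.51 ± 0.10 (adjusted p = 0.00165), the recombinase gene Rag1 by -1.49, the semaphorin gene Sema6d by -1.33 and Sytl2 by -1.13. Leaving out compound replicate 3 kept the call of Tsc22d1 among the 4 rises and of Syndig1l and Sema6d among the 4 falls, and the adjusted p of the others reached at most 0.124.

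The transcripts of the compound's named targets moved little. Foxo1 had 9.35, 9.15 and 9.05 in compound cells and 9.69, 9.40 and 9.34 in DMSO cells, so that compound replicate 1 lay within the DMSO range. The difference of -0.29 ± 0.11 was not called (adjusted p = 0.196), and with the replicate block it passed (adjusted p = 0.0152). In the deletion arm, Foxo1 had 8.16, 8.02 and 8.12 with 4-OHT and 10.02, 10.11 and 10.07 with EtOH, a difference of -1.97 ± 0.06 (adjusted p = 1.01e-07). Foxo4, a close relative with shared DNA binding, had 8.72, 8.96 and 8.83 with the compound and 9.43, 9.19 and 9.21 with DMSO, and fell by 0.44 ± 0.09 (adjusted p = 0.0406). That call held in 1 of the 6 fits with a library left out, with adjusted p between 0.0454 and 0.150. Foxo3 (-0.05), Foxo6 (0.03), Gsk3a (0.01) and Gsk3b (0.03) were not called.

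Genes listed as FOXO targets moved in both directions. Of 35 tested, 7 fell and 2 rose, against 2.97% and 1.88% of all tested genes. With the replicate block 10 were lower and 6 higher, against 7.54% and 6.66%. The median difference was -0.04, against 0.0047 over all tested genes. Irs2, the insulin receptor substrate gene that FOXO1 drives in liver, had 7.38, 7.40 and 7.33 in compound cells and 8.27, 7.92 and 7.88 in DMSO cells, and fell by 0.66 ± 0.11 (adjusted p = 0.0246). The insulin receptor gene Insr fell by 0.28, close to the threshold (adjusted p = 0.0494). Sesn1, a sensor of amino acids and oxidants that restrains mTORC1, had 9.43, 9.61 and 9.58 with the compound and 9.997, 9.99 and 9.95 with DMSO (-0.44, adjusted p = 0.0119). Fbxo32, a ubiquitin ligase gene of muscle atrophy, fell by 0.84 (adjusted p = 0.0289) and the coregulator gene Cited2 by 0.37. Rag1 had 6.06, 5.70 and 5.46 in compound cells and 7.73, 7.25 and 6.69 in DMSO cells, and fell by 1.49 ± 0.26 (adjusted p = 0.0249). Rag2, its partner in the recombinase, fell by 0.59 (adjusted p = 0.0145). In both recombinase genes every compound library was below every DMSO library, and none of the 557 called genes had an overlap. The death gene Bcl2l11, which encodes BIM, rose: it had 10.68, 10.70 and 10.55 with the compound and 10.22, 10.22 and 10.25 with DMSO (0.41 ± 0.05, adjusted p = 0.0099). Trib3 was the other riser, and it is also a member of the ATF4 stress list described below. Other FOXO1 targets of lymphocytes were not called, among them the interleukin receptor gene Il7r, which had 10.86, 10.38 and 10.34 in compound cells and 10.90, 10.57 and 10.54 in DMSO cells (-0.15, adjusted p = 0.644). The homing regulator gene Klf2 was at -0.02, and the cell cycle inhibitor gene Cdkn1b at -0.06. The cyclin gene Ccng2, often used as a FOXO readout, was at -0.67 and passed with the replicate block but not without it. Of the 9 calls, 2 held without compound replicate 2, and the call of Bcl2l11 held whichever library was left out, while adjusted p of the others reached up to 0.183.

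The letters bound by FOXO factors were more frequent at the promoters of genes that fell than at those of genes that rose. The motif GTAAACA, read on both strands, was searched in RefSeq windows from 250 bases before to 50 bases after each start on GRCm38.p6. The search covered protein-coding genes and left out chr18, so the gene counts below leave it out too. A window was matched for 266 of 331 genes that fell, 159 of 197 that rose and 8588 of 10373 tested. The motif was present for 25 of the 266 genes that fell (9.4%), for 4 of the 159 that rose (2.52%) and for 267 of all 8588 (3.11%). Among genes called with the replicate block it was present for 51 of 667 lower genes (7.65%) and 9 of 571 higher genes (1.58%). The same letters in reverse order, ACAAATG, which keep the base composition, were present for 12 genes that fell (4.51%), 8 that rose (5.03%) and 2.54% of all. They can overlap the FOXO letters, as in the Pik3cg window printed below, so their shares are not independent of the FOXO shares. For 4-OHT against EtOH the order was the other way, with the FOXO motif at 51 of 2303 genes that fell (2.21%) and 95 of 2200 that rose (4.32%). The letters CTTTGAT, bound by the TCF and LEF partners of beta-catenin, were at 3 of the 266 genes that fell (1.13%) and 6 of the 159 that rose (3.77%), against 2.99% of all. Motifs other than the FOXO and TCF/LEF letters were searched after the values were known. The E2F letters TTTCCCGC had a like pattern to FOXO, at 14 of the 266 genes that fell (5.26%) and 2 of the 159 that rose (1.26%), against 2.56% of all. The ATF4 letters TGATGNAA were at 1.88% of genes that fell and 5.66% of those that rose, against 2.67% of all, and the E-box CACGTG at 13.2% and 18.2%, against 12.1%. The AP-1 letters TGANTCA were at 5.26% and 6.29%, against 5.3%. A match describes the letters and not a bound site, and no test was made of these shares.

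**Figure D2:**
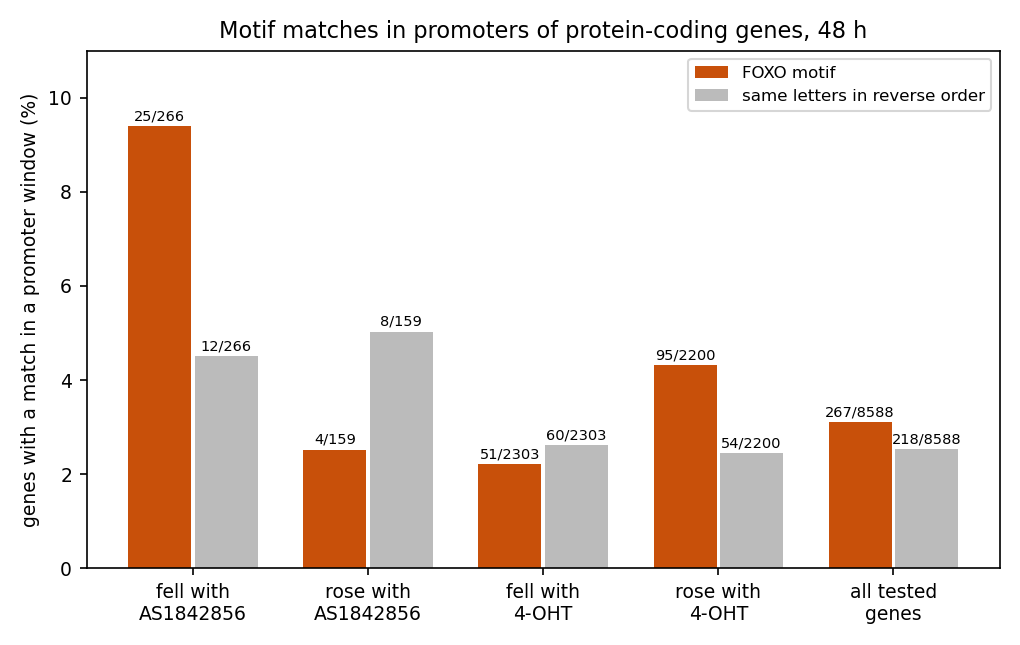
Share of genes, in percent, whose promoter window holds the FOXO letters GTAAACA or the same letters in reverse order, for genes that fell or rose with AS1842856, for genes that fell or rose with 4-OHT, and for all tested genes. Genes that fell with the compound have the FOXO letters at 9.4%, against 3.11% of all tested genes.

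Windows of 6 genes that fell are printed below, chosen after their values were seen except for Pik3cg. Of the 24 genes with the largest changes, 17 had a window to search, and among those 17 the FOXO or TCF/LEF letters were found in Pik3cg alone. Pik3cg encodes the gamma catalytic subunit of PI3K, Ccnd3 encodes cyclin D3, Pim1 encodes a survival kinase, and Frat1 and Frat2 encode proteins that bind GSK3. In capitals are the FOXO letters GTAAACA, or TGTTTAC where they lie on the opposite strand. Each sequence is from RefSeq on GRCm38.p6 and runs 5′ to 3′ on the strand of the gene. The windows are chr12:32208421-32208720 on the minus strand for Pik3cg, chr17:47504801-47505100 on the plus strand for Ccnd3, chr17:29492835-29493134 on the plus strand for Pim1 and chr10:41810324-41810623 on the plus strand for Sesn1. Those of the neighbours are chr19:41848083-41848382 on the minus strand for Frat2 and chr19:41829720-41830019 on the plus strand for Frat1.
Pik3cg: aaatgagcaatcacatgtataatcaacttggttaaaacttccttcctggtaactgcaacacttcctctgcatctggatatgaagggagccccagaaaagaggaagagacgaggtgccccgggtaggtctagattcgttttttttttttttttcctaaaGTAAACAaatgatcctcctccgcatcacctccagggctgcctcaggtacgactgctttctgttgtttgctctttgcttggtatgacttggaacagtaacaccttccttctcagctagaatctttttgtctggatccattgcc
Ccnd3: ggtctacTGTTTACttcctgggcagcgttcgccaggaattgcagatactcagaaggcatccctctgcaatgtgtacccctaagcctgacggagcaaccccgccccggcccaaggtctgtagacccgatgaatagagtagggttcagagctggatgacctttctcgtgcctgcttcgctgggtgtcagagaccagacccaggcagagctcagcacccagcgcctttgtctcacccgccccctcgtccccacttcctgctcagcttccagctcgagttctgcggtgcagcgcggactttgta
Pim1: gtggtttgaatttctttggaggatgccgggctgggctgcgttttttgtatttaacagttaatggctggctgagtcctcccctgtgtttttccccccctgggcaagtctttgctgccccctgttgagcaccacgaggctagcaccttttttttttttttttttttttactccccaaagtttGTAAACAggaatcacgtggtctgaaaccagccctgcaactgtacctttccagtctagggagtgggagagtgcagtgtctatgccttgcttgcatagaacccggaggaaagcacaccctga
Sesn1: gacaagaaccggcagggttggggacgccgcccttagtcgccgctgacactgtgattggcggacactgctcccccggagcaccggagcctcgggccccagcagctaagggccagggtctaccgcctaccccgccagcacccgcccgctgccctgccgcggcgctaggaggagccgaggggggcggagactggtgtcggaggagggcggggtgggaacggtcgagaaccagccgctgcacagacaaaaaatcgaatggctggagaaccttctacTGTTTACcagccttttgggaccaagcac
Frat2: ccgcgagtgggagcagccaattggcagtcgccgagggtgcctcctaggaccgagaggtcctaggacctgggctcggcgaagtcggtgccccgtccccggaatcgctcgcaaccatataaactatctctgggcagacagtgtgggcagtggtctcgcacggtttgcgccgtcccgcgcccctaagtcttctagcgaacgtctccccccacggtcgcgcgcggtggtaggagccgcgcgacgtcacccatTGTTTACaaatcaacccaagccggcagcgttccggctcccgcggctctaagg
Frat1: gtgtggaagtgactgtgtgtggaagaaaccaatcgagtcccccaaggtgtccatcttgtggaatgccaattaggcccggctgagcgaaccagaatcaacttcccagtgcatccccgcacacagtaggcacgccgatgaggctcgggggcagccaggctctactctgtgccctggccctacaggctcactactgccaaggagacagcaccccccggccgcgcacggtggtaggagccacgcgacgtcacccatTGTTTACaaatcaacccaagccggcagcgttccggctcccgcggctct

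In the printed direction the letters begin 92 bases before the start in Pik3cg, 243 in Ccnd3, 70 in Pim1 and 2 in Frat2, where they run across the start. They begin at base 3 counted from the start in Frat1 and at base 23 in Sesn1. The Frat2 and Frat1 windows share an unbroken run of 63 bases that holds the motif, so they are not independent examples. Frat2 had 7.73, 7.59 and 7.62 in compound cells and 8.74, 8.38 and 8.48 in DMSO cells, and fell by 0.89 ± 0.11 (adjusted p = 0.00712). Frat1 had 4.61, 4.60 and 4.54 with the compound and 5.18, 5.18 and 4.99 with DMSO (-0.53 ± 0.08, adjusted p = 0.0163). In each gene every compound library was below every DMSO library, as no called gene had an overlap. Reads of these near-identical genes may have been shared between them. Both rose with 4-OHT, Frat2 by 1.04 and Frat1 by 0.54. Of the 25 genes that fell and hold the letters, 12 rose (48.0%), 5 fell (20.0%) and 8 were not called with 4-OHT. That split was near that of all 341 genes that fell, where 41.1% rose and 20.8% fell with 4-OHT. The 341 include genes that the promoter search did not cover. Among the 4 genes that rose and hold the letters were Bcl2l11 and the plasma cell regulator gene Prdm1.

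The called PI3K and insulin receptor feedback genes all fell. Of 28 tested, 7 fell and none rose, against 2.97% and 1.88% of all tested genes. With the replicate block 11 were lower and none was higher, against 7.54% and 6.66%. The median difference was -0.17. Pik3cg had 9.61, 9.49 and 9.43 in compound cells and 10.56, 10.27 and 10.27 in DMSO cells (-0.86 ± 0.09, adjusted p = 0.00626). Pik3cd, the delta catalytic subunit on which B cells rely, had 12.90, 12.80 and 12.80 with the compound and 13.45, 13.24 and 13.25 with DMSO (-0.48 ± 0.07, adjusted p = 0.0125). In both genes the highest compound library lay below the lowest DMSO library, and none of the 557 called genes had an overlap. Inpp5d, which encodes the opposing lipid phosphatase SHIP1, fell by 0.24 and the mTORC1 subunit gene Rptor by 0.23. Irs2 and Insr, given above, were also among the falls. Tsc2, which restrains mTORC1, had 5.25, 5.44 and 3.95 with the compound and 3.96, 3.95 and 4.19 with DMSO, so that 1 compound library lay with DMSO and the difference of 0.84 was not called (adjusted p = 0.222). Without compound replicate 2 the call of Pik3cg alone was kept, and adjusted p of the others reached up to 0.183.

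The called genes of B-cell identity all fell. Of 33 tested, 8 fell and none rose, against 2.97% and 1.88% of all tested genes, and the median difference was -0.19. The block gave 19 lower and 3 higher, against 7.54% and 6.66%. Ebf1, a founding transcription factor of the lineage, had 11.66, 11.55 and 11.51 in compound cells and 12.24, 12.10 and 12.10 in DMSO cells (-0.57 ± 0.06, adjusted p = 0.00626). Cd79b, which carries signals of the B-cell receptor inward, had 11.44, 11.43 and 11.33 with the compound and 12.17, 12.002 and 11.89 with DMSO (-0.62 ± 0.07, adjusted p = 0.00712). Rag1 and Rag2 are given above. The surrogate light chain genes Vpreb1, Vpreb2 and Igll1 fell by 0.41, 0.36 and 0.23, though reads of the near-identical Vpreb1 and Vpreb2 may have been shared. Pax5, the guardian of B-cell commitment, fell by 0.38 (adjusted p = 0.0494). Bach2, a repressor of plasma cell fate, was at -0.79 and passed with the block alone (adjusted p = 0.0218, against 0.0995 without it). Calls for Ebf1 and Cd79b held whichever library was left out, and without compound replicate 3 they were the only 2 of the 8 (highest adjusted p = 0.148). The list for later stages, mature B and plasma cells, had 2 rises and no fall among 12 genes, 5 higher and none lower with the block, and its median was 0.08. The riser Cd40, a costimulatory receptor gene, had 4.71, 4.20 and 4.05 in compound cells and 3.49, 3.49 and 3.15 in DMSO cells (0.94 ± 0.18, adjusted p = 0.0289). Prdm1 rose by 0.58. Neither call held without compound replicate 3, and both are low-level genes.

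Myc fell at the RNA level, while few genes of its target list passed in either direction. It had 12.04, 12.26 and 12.25 in compound cells and 12.80, 12.84 and 12.80 in DMSO cells, and fell by 0.63 ± 0.07 (adjusted p = 0.00626), a call that held whichever library was left out. Of 32 tested MYC-linked and ribosome biogenesis genes, Myc itself fell, the RNA polymerase subunit gene Polr1c rose by 0.36, and 27 had positive differences, with a median of 0.11. The block gave 3 higher and 1 lower. Beside the counts of both lists here stand 1.88% higher and 2.97% lower over all tested genes, and 6.66% and 7.54% with the block. Of 13 known beta-catenin targets, 3 fell and 1 rose (4 and 1 with the block), with a median of 0.03. Nkd1, a feedback inhibitor of Wnt signalling, had 4.06, 4.01 and 4.42 with the compound and 3.49, 3.48 and 3.52 with DMSO (0.66 ± 0.11, adjusted p = 0.0216), whereas its relative Nkd2 fell by 0.61 and Tcf7l2 by 0.43. Axin2, the usual readout of beta-catenin, was at 0.03 and not called. Without compound replicate 1 the call of Myc alone was kept among these 4.

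Among 33 STAT5 and cytokine genes, 5 fell and 3 rose, against 2.97% and 1.88% of all tested genes, with a median of -0.08. The block gave 6 lower and 5 higher, against 7.54% and 6.66%. Pim1 had 12.001, 12.14 and 12.09 in compound cells and 12.57, 12.52 and 12.45 in DMSO cells (-0.44 ± 0.06, adjusted p = 0.0086). Dusp6, a phosphatase gene that ERK signalling induces, fell by 0.55, the ERK pathway inhibitor genes Spred1 and Spred2 each by 0.32 and the kinase gene Jak1 by 0.25. The risers were Cd69 (0.75), the cytokine gene Osm (0.39) and the early response gene Ier3 (0.32). None of the 8 calls held without compound replicate 3, with adjusted p up to 0.145.

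The called cell cycle genes all fell. Of 33 G1/S and replication genes, 5 fell and none rose, 2 had a positive difference, and the median was -0.16. The block gave 17 lower and 1 higher. Beside the counts of this list and the next stand 2.97% lower and 1.88% higher over all tested genes, and 7.54% and 6.66% with the block. Ccnd3, the D-type cyclin on which B-cell precursors depend, had 13.02, 13.07 and 13.07 in compound cells and 13.75, 13.80 and 13.89 in DMSO cells (-0.76 ± 0.05, adjusted p = 0.00174). E2f2, an activator of S-phase genes, had 10.14, 10.27 and 10.21 with the compound and 10.75, 10.71 and 10.74 with DMSO (-0.53 ± 0.05, adjusted p = 0.00509). Both calls held whichever library was left out. The replication genes Mcm7 and Cdt1 fell by 0.42 and 0.28, and Tk1 of thymidine salvage by 0.35. Of 30 G2/M and mitosis genes, 5 fell and none rose, 1 had a positive difference, the median was -0.18, and with the block 20 were lower. Ccnb2, the cyclin B2 gene, had 11.25, 11.24 and 11.22 in compound cells and 11.59, 11.53 and 11.53 in DMSO cells (-0.31 ± 0.04, adjusted p = 0.0105). The mitotic regulators Foxm1, Kif2c, Kif11 and Aurkb fell by 0.31, 0.31, 0.29 and 0.25. These 5 calls were lost without compound replicate 2 (adjusted p up to 0.138).

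Inhibitors of proliferation moved in both directions. Of 20 tested, 4 fell and 1 rose, against 2.97% and 1.88% of all tested genes, with a median of -0.07. With the block 6 were lower and 5 higher, against 7.54% and 6.66%. Rb1, the retinoblastoma gene, had 9.41, 9.43 and 9.33 in compound cells and 9.96, 9.85 and 10.09 in DMSO cells (-0.58 ± 0.07, adjusted p = 0.0086). The MYC antagonist genes Mxi1, Mxd3 and Mnt fell by 0.46, 0.46 and 0.32, and the antiproliferative gene Tob2 rose by 0.27. All 5 calls were lost without compound replicate 3, with adjusted p up to 0.157.

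**Figure D3:**
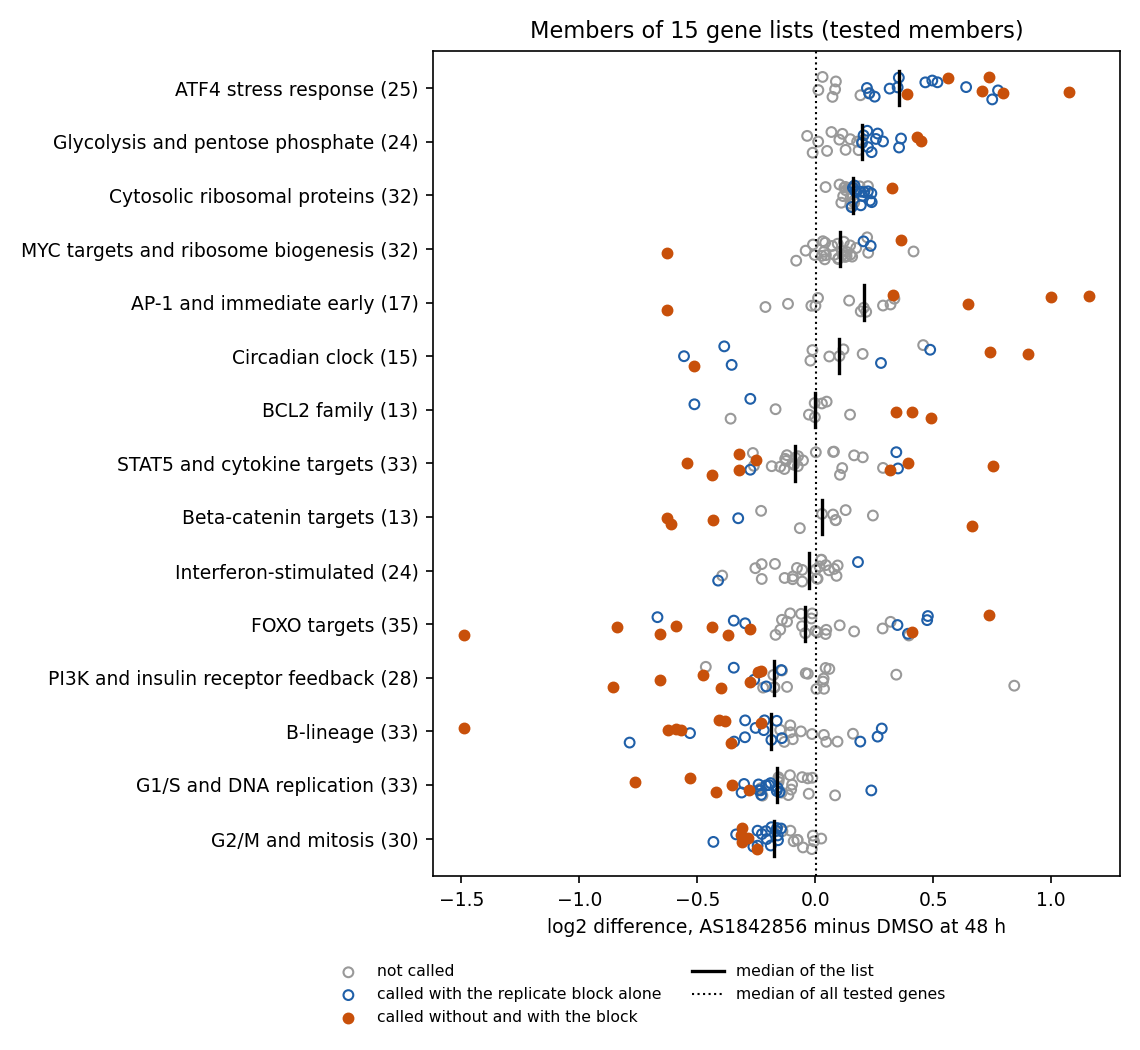
Log2 difference (AS1842856 minus DMSO at 48 h) of each tested member of 15 gene lists, with the number of tested members in brackets, called members filled, members called with the replicate block alone in blue outline, and the median of each list as a bar. The ATF4 stress list has the highest median at 0.35 and the B-lineage list the lowest at -0.19, against 0.0047 over all tested genes (dotted line).

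The called genes of the amino acid and stress response driven by ATF4 all rose. Of 25 tested, 6 rose and none fell, all 25 had positive differences, and the median of 0.35 was the highest of the lists. With the replicate block 18 were higher. Over all tested genes 1.88% rose and 2.97% fell, and 6.66% were higher and 7.54% lower with the block. Nupr1, a stress-induced chromatin protein gene, had 7.88, 7.38 and 8.04 in compound cells and 6.92, 6.32 and 6.83 in DMSO cells (1.07 ± 0.21, adjusted p = 0.0333). Slc3a2, the heavy chain of amino acid transporters, had 12.40, 12.19 and 12.40 with the compound and 12.03, 11.87 and 11.91 with DMSO (0.39 ± 0.07, adjusted p = 0.0309). Cebpb, a dimer partner of ATF4, rose by 0.79, Sesn2, a leucine sensor gene, by 0.71, and Trib3 and Atf5 as given above. In all 6 risers replicate 2 was the lowest library in both groups. Cth of cysteine synthesis was at 0.77, Ddit4 at 0.75, Ddit3, which encodes CHOP, at 0.64 and Asns, the asparagine synthetase gene, at 0.35, and each passed with the block alone. None of the 6 calls held without compound replicate 1 or 3 or DMSO replicate 2 or 3 (adjusted p up to 0.157). In limma the unfolded protein response list had none of 20 called, with 5 at an unadjusted p under 0.05, 5 higher with the block and a median of 0.12. The heat shock list had none of 17 called, with 1 at an unadjusted p under 0.05, 3 higher with the block and a median of 0.09.

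AP-1 genes were among the clearest rises. Jun had 9.70, 9.75 and 9.64 in compound cells and 8.86, 8.62 and 8.61 in DMSO cells, and rose by 1.00 ± 0.08 (adjusted p = 0.00221), a call that held whichever library was left out. Atf3, a stress-induced partner of JUN, had 8.25, 8.18 and 8.28 with the compound and 7.05, 6.78 and 7.40 with DMSO (1.16 ± 0.15, adjusted p = 0.0086). The compound libraries of both genes were tightly grouped and well above DMSO. Fosl2 rose by 0.65 and Ier5 by 0.33. Over the list, 4 of 17 rose and Myc fell, against 1.88% and 2.97% of all tested genes, and the median was 0.21. Without compound replicate 3, Jun and Myc were the calls kept (adjusted p of the others up to 0.128).

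Metabolic lists held at most 2 calls each without the block, while glycolysis and ribosomal protein genes held many more with it. Of 24 glycolysis and pentose phosphate genes, 2 rose, none fell and 22 had positive differences, with a median of 0.20, and with the block 12 were higher. For the lists of this paragraph, the shares over all tested genes were 1.88% higher and 2.97% lower, and 6.66% and 7.54% with the block. Pfkp, the platelet-type phosphofructokinase gene, had 11.86, 11.88 and 12.09 in compound cells and 11.54, 11.39 and 11.55 in DMSO cells (0.45 ± 0.08, adjusted p = 0.0228). Aldoa, the aldolase gene, rose by 0.43 (adjusted p = 0.0474). Both calls were kept without DMSO replicate 1 and lost without any other library (adjusted p up to 0.173). Ldha, Pgk1, Eno1, Pkm and Hk2 were among those that passed with the block alone. All 32 tested genes of cytosolic ribosomal proteins had positive differences, with a median of 0.16. Of these, Rpl10 rose by 0.33 (adjusted p = 0.0262), a call lost without compound replicate 1 (adjusted p up to 0.126), and 14 were higher with the block. In the polyamine, serine and one-carbon list none of 18 was called in limma, with 4 at an unadjusted p under 0.05, 4 higher with the block and a median of 0.11. Its member Aldh1l2, a mitochondrial folate enzyme gene, was at 1.06 and passed with the block alone (adjusted p = 0.00227, against 0.0569 without it). Of 26 cholesterol synthesis genes, Fdft1 fell by 0.28, and of 21 genes of fatty acids and lipids Acadm rose by 0.34 and Fads2 by 0.33, with none of these 3 calls held without compound replicate 2. With the block the cholesterol list had 3 higher and 1 lower, and the lipid list 3 higher and 2 lower. None of 29 nuclear oxidative phosphorylation genes was called in limma (4 at an unadjusted p under 0.05, 1 with the block, median 0.04), nor any of 13 mitochondrially encoded genes (4 and 3, median 0.14). Of 24 interferon-stimulated genes none was called, with 6 at an unadjusted p under 0.05, 2 with the block in opposite directions and a median of -0.03.

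Survival genes, clock genes and smaller groups also held calls. Over all tested genes 1.88% rose and 2.97% fell, and the counts of these short lists without the block stand beside those shares. Their counts with the block stand beside 6.66% higher and 7.54% lower. Of 13 BCL2 family genes 3 rose and none fell, with a median of -0.00, and the block gave 3 higher and 2 lower, Bok (-0.51) and Bcl2l1 (-0.28). Bcl2, the founding survival gene, had 11.49, 11.49 and 11.64 in compound cells and 11.21, 10.83 and 11.10 in DMSO cells (0.49 ± 0.10, adjusted p = 0.0369). The death genes Bcl2l11 and Pmaip1 rose by 0.41 and 0.34, so that the 3 risers act in opposite directions. The p53 target list held 2 rises, Sesn2 and Pmaip1, and 1 fall, Sesn1, among 19 genes, against 5 higher and 2 lower with the block. The calls of Bcl2, Pmaip1 and Sesn2 were lost without compound replicate 1 or 3, with adjusted p up to 0.181. Of 15 clock genes, Nfil3, a repressor of the output genes, rose by 0.74 ± 0.09 (adjusted p = 0.0086), Bhlhe40 rose, and Nr1d2, which encodes REV-ERB beta, fell by 0.51 ± 0.06 (adjusted p = 0.00771). All 3 clock calls held whichever library was left out, and the block gave 4 higher and 4 lower, with Nr1d1, Per3 and Dbp among the lower ones. Of 30 lysosome and autophagy genes, the sialidase gene Neu1 rose by 0.54, the calcium channel gene Mcoln1 by 0.32 and the cathepsin gene Ctsz by 0.32. The block gave 5 higher and 3 lower in that list, the lower ones being the autophagy genes Gabarapl1 (-0.23), Gabarapl2 (-0.20) and Atg7 (-0.25). Among 13 genes of the AHR and NRF2 responses Hmox1, which breaks down heme, rose by 0.52, and Tiparp, a feedback inhibitor of AHR, by 0.35, and the block gave 4 higher and 2 lower. The median of these AHR and NRF2 genes was -0.07 and that of the lysosome list 0.09. The lysosome, AHR and NRF2 calls were lost without compound replicate 1, with adjusted p up to 0.151.

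Most markers of other blood and stromal cells were at 0 or below the level filter. Summed levels here are the log2 of the summed linear values of all listed genes with a mean above 0, tested or not. Beside the counts below stand 1.88% higher and 2.97% lower over all tested genes, and 6.66% and 7.54% with the block. Of 13 myeloid markers 4 were tested and none was called, and Elane, S100a8 and S100a9 were at 0. Their list had a summed level of 7.15 to 7.32 in compound cells and 7.08 to 7.25 in DMSO cells. Of 15 T and NK markers 5 were tested, with a summed level of 10.6 to 10.8 in compound cells and 10.5 to 10.7 in DMSO cells and with Cd4 and Ncr1 at 0. The block gave 2 higher, and without it 1 rose: Zap70, a kinase of antigen receptor signalling, had 7.28, 6.99 and 7.30 in compound cells and 6.19, 5.77 and 6.01 in DMSO cells (1.20 ± 0.14, adjusted p = 0.0066). Of 10 erythroid markers 2 were tested and none was called, and the globins were at 0. The summed level of 13.8 to 14.0 with the compound and 13.0 to 13.6 with DMSO came mainly from the transferrin receptor gene Tfrc, which dividing cells share and which passed with the block alone (0.57, adjusted p = 0.0102). Of 12 stromal and endothelial markers 1 was tested, Pecam1, which passed with the block alone. The summed level of that list was 10.1 to 10.5 in compound cells and 9.67 to 10.3 in DMSO cells.

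The 24 h libraries give the earlier state of the same treatment, and 1 of them stood near DMSO. The genes compared here were chosen by their 48 h values, which by itself tends to enlarge their 48 h medians. Over the 216 genes that rose at 48 h, the median difference of each compound library from the DMSO mean was 0.45, 0.40 and 0.44 at 48 h, but 0.25, 0.17 and 0.02 at 24 h. Over the 341 genes that fell it was -0.39, -0.35 and -0.39 at 48 h, and -0.28, -0.23 and 0.03 at 24 h, so that the third compound library at 24 h showed neither shift. Its part in the results was not tested beyond leaving it out. With all libraries, 1 gene passed at 24 h (0.00872%), Morc3, whose level at 48 h varied between 6.23 and 9.24 within groups, and 232 genes had an unadjusted p under 0.05. Without that library 20 genes were called (0.174%), 4 higher (0.0349%) and 16 lower (0.139%), of which 17 were also called at 48 h in the same direction. They included Syndig1l (-1.22), Drc7 (-1.13), Crebrf (-1.13), Klhl24 (-1.08) and Pdcd4 (-1.01) among the lower genes and Pld4 (0.89), Prdm1 (0.77) and Nkd1 (0.75) among the higher ones. Gng4 had 7.31, 8.29 and 9.67 in compound cells at 24 h, against 9.41, 9.78 and 9.79 in DMSO cells. The first of these compound libraries was already at the 48 h level, and the third was within the DMSO range. Jun had 8.70, 8.58 and 8.74 with the compound at 24 h and 8.35, 8.62 and 8.54 with DMSO, where the groups overlapped.

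By sign, 205 of the 216 risers were positive at 24 h and 329 of the 341 fallers negative, with medians of 0.16 and -0.16, against 0.44 and -0.38 at 48 h. The 48 h medians come from the values that chose these genes, so smaller medians at 24 h do not by themselves show a weaker response. Of all tested genes 6025 were positive at 24 h. Without the third compound library, 197 risers were positive and 329 fallers negative, with medians of 0.21 and -0.25. The test of the difference itself, 48 h minus 24 h over 12 libraries, called 1 gene of 11470 (0.00872%), the predicted gene Gm10698, with 443 at an unadjusted p under 0.05. This test had a median standard error of 0.13, against 0.08 for the 48 h comparison alone, which limits the differences it can detect gene by gene.

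**Figure D4:**
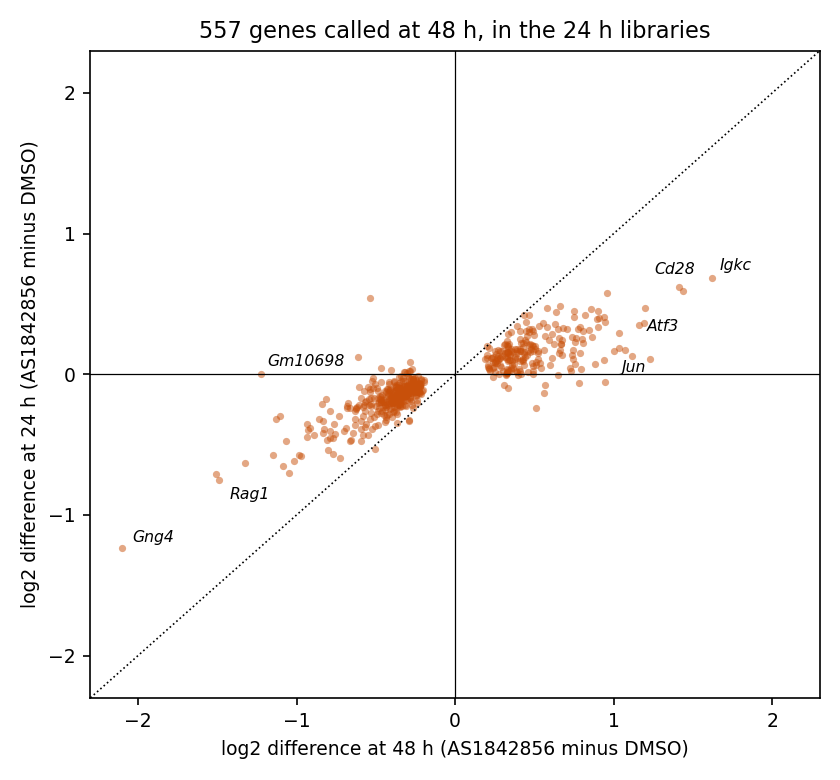
Log2 difference, AS1842856 minus DMSO, at 24 h (vertical axis) against that at 48 h (horizontal axis) for each of the 557 genes called at 48 h, with the line of equal differences dotted. Most points lie on the same side of 0 at both times and nearer to 0 at 24 h. Medians were 0.16 for risers and -0.16 for fallers at 24 h, against 0.44 and -0.38 at 48 h. The genes were chosen by their 48 h values, which by itself tends to make the 48 h differences larger.

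Deletion of Foxo1 by 4-OHT for 48 h gives a genetic counterpart in the same cells, with its own solvent control and no library in common. It called 5824 genes (50.8%), 2862 higher (25%) and 2962 lower (25.8%). Of the 216 genes that rose with the compound, 70 rose, 78 fell and 68 were not called with 4-OHT. Of the 341 genes that fell with the compound, 71 fell, 140 rose and 130 were not called. The test of the difference between the responses, compound minus 4-OHT, called 4254 genes (37.1%), 2064 higher (18%) and 2190 lower (19.1%). Of the 216 risers 138 were higher, 23 lower and 55 not called in that test. Of the 341 fallers 269 were lower, 13 higher and 59 not called. These genes were chosen by the compound difference that the test contains. A lean of risers to higher and of fallers to lower was therefore built in. Solvent levels differed for some genes, such as Rag1, which had 7.73, 7.25 and 6.69 in DMSO and 5.90, 5.76 and 5.55 in EtOH, and 4-OHT gave it no call.

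Some leading genes moved the same way with the compound and with 4-OHT. Gng4 had 7.72, 7.97 and 7.92 with 4-OHT and 9.67, 9.61 and 9.65 with EtOH, a difference of -1.77 beside -2.10 with the compound, and the difference of -0.33 ± 0.11 between the responses passed (adjusted p = 0.031). Pik3cg fell by 0.86 with the compound and 0.76 with 4-OHT, a difference of -0.10 ± 0.11 (adjusted p = 0.507). Ttll11 rose by 0.94 with each, with a difference of -0.00 ± 0.11 (adjusted p = 0.992). Myc fell by 0.63 and 0.66, Ebf1 by 0.57 and 0.46 and Pnp by 0.83 and 0.82, none with a difference that was called. Jun, Bcl2l11 and Zap70 rose with both.

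Many others went the opposite way. Klhl24 fell with the compound and had 11.12, 11.17 and 11.23 with 4-OHT against 10.34, 10.32 and 10.35 with EtOH, a rise of 0.84, and the responses differed by -1.92 ± 0.15 (adjusted p = 3.99e-06). Cd79b fell by 0.62 with the compound and rose by 0.79 with 4-OHT (difference -1.41 ± 0.09). Cd52, a surface glycoprotein gene of lymphocytes, had 9.45, 9.43 and 9.34 with the compound and 10.26, 10.15 and 10.18 with DMSO, but 11.24, 11.30 and 11.20 with 4-OHT and 10.17, 9.94 and 9.94 with EtOH. Its fall of 0.79 and rise of 1.23 differed by -2.02 ± 0.09. Of the higher genes, Cd69 rose by 0.75 with the compound and fell by 1.43 with 4-OHT (difference 2.18 ± 0.17), Trib3 rose by 0.74 and fell by 1.46 (2.19 ± 0.20), and Atf3 rose by 1.16 and fell by 1.11 (2.27 ± 0.18). The widest difference among lower genes was that of Ahnak, a large scaffold protein gene, at -2.95 ± 0.12. It was not called with the compound (-0.32) and rose by 2.63 with 4-OHT.

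Several lists had medians of opposite sign with the 2 treatments. ATF4 genes had a median of 0.35 with the compound and -0.77 with 4-OHT, where 23 of 25 fell and 1 rose, and 24 were higher in the test of the difference. MYC and ribosome biogenesis genes had medians of 0.11 and -0.56, with 27 of 32 higher in that test, and glycolysis genes medians of 0.20 and -0.26, with 15 of 24 higher. In the other direction, G2/M genes had medians of -0.18 and 0.16, with 23 of 30 lower in the test, B-lineage genes -0.19 and 0.18, with 20 of 33 lower, and FOXO targets -0.04 and 0.22, with 16 of 35 lower and 5 higher. PI3K genes had medians of -0.17 and 0.09, with 12 of 28 lower and none higher. The counts in the test of the difference stand beside 18% higher and 19.1% lower over all tested genes. The counts with 4-OHT stand beside 25% higher and 25.8% lower. The doses, solvents and modes of action of both treatments differ, so values are set side by side at matched time only.

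**Figure D5:**
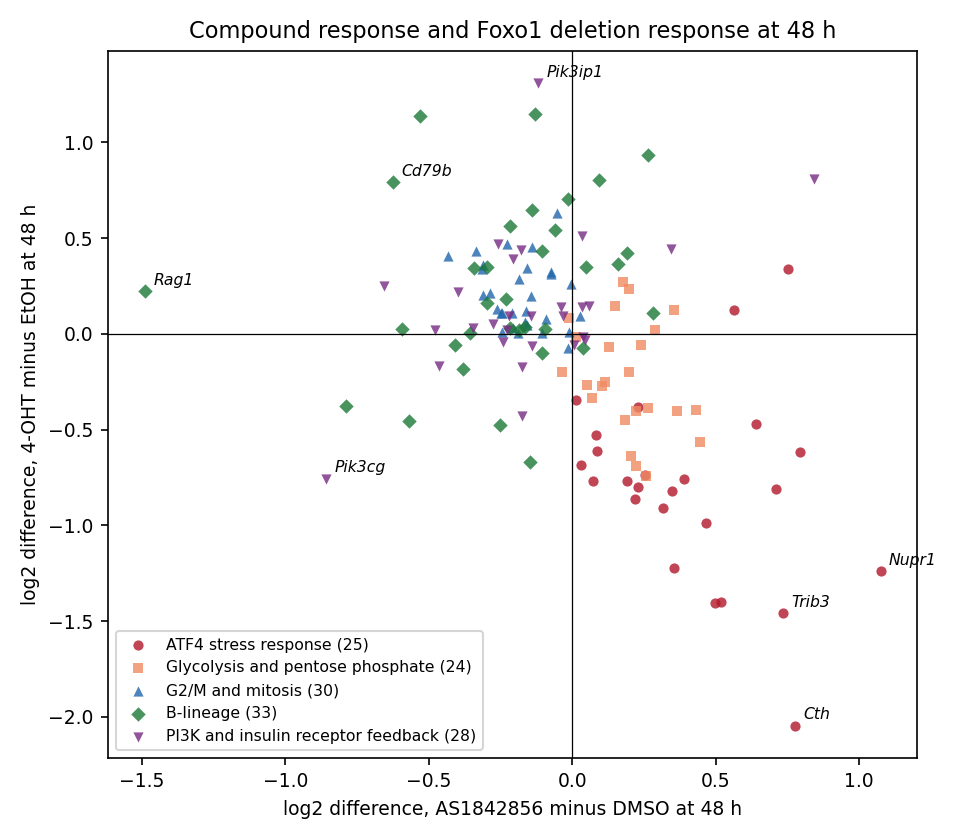
Log2 difference of AS1842856 minus DMSO (horizontal axis) against that of 4-OHT minus EtOH (vertical axis) at 48 h, for the tested members of 5 gene lists, 1 symbol per list. ATF4 and glycolysis genes lie mostly to the right and below 0, with medians of 0.35 and 0.20 with the compound and -0.77 and -0.26 with 4-OHT, and G2/M genes mostly to the left and above 0.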

How the data were processed

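The tools listed, per the submitters' processing notes, are DESeq2 1.44.0, STAR 2.7.11b and Salmon 1.1.1, with the mouse build mm10 and no role for any of them. How reads were counted, and whether by strand, is not given in the sources used here. The library columns and the mean column hold log2 values that the authors deposited after a normalisation that the file headers do not name. Antisense, overlapping and near-identical genes are therefore uncertain. The authors' deposited tables also hold a log2 fold change, a test statistic (a score), and a p-value and adjusted p-value, which gave no result here. All 557 called genes had the same sign in the authors' deposited table, and over the 354 at or above the median level the median ratio of the library difference to the deposited fold change was 0.662.

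The titles of the samples gave each library its group and replicate number (8 groups of 3). Genes with a deposited mean log2 value of at least 3.46 were fitted on the log2 values, with no added pseudocount, in limma 3.58.1 (R 4.3.3; lmFit and eBayes with a trend), and p-values were adjusted by Benjamini-Hochberg over all 11470 tested genes, with calls at an adjusted p of 0.05. The fit was tested on simulated data. Contrasts between responses used 12 libraries each. Positions are from GENCODE M21 (11438 tested genes matched), and 10 symbols were looked up. Same-numbered compound and DMSO libraries at 48 h deviated together, with correlations of 0.41, 0.25 and 0.15. Compound replicate 2 with DMSO replicate 3 had 0.18, and compound replicate 3 with DMSO replicate 2 had 0.11. The other unlike-numbered correlations were negative. Replicate 1 thus stood out, while numbers 2 and 3 were not clearly told apart, so whether the libraries are paired stays uncertain. The fit with the replicate number as a block is given beside the counts of genes and list members that it moves. At 24 h the same-numbered correlations were 0.46, -0.34 and -0.19, and for 4-OHT and EtOH at 48 h 0.05, -0.16 and -0.05, so the numbers gave no regular pairing there.

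The members and gene lists were chosen with earlier results of these data known. The rule for naming genes took the FOXO family with GSK3, the 12 largest called rises and falls at or above the median level and the 4 largest below it, without predicted or clone names and without overlap between groups, the 4 members (or fewer) of each list that had the smallest p, and the 5 widest differences each way between responses. Other called list members, block-only genes and the genes at promoters were chosen after their values were seen. Alternatives were other filters, scalings and limma settings, all 24 libraries in the fit, the block, and leaving out each library. Figures were drawn with matplotlib 3.10.9.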

Additional observations from a re-analysis of the deposited data

Results flagged for a closer look

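Gm10698, which the annotation lists as a processed pseudogene on chromosome 9, was the sole gene whose response differed between the times by the test of the difference itself. It had 2.706, 2.703 and 2.704 in compound cells and 3.93, 4.02 and 3.85 in DMSO cells at 48 h, while the 6 libraries at 24 h lay between 2.6995 and 2.7088. The response at 48 h minus that at 24 h was -1.23 ± 0.08 on the log2 scale (SE; adjusted p = 3.39e-05, limma over 12 libraries). Of these 4 groups, DMSO at 48 h was the one that stood above the rest. The authors' deposited log2 fold change for this gene at 48 h was much smaller, at -0.11. The library difference at 48 h was between -1.27 and -1.18 with a library left out. The size of the change is therefore uncertain. Whether the near-constant values of the other groups are a floor of the deposited scale was not tested. With 4-OHT against EtOH at 48 h the gene was not called (difference -0.00, adjusted p = 0.946).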

How the results depend on the processing

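Every one of the 557 genes called at 48 h kept its sign in each alternative that tested it. Most alternatives could not have changed it. No called gene had an overlap, so leaving out a library kept the sign by construction. The block, the filters, the limma settings and the fit of all 24 libraries leave the difference of means unchanged. Only rescaled libraries could have changed a sign. The count of called genes was 536 with robust eBayes, 453 without a trend and 569 with libraries shifted to the same median. It was 539 after quantile normalization, 544 with the stricter level filter and 410 with no filter. It was 1220 with all 24 libraries in the fit. Leaving out 1 library gave between 108 and 901 genes. With the replicate block the count was 1629, with the block and libraries at the same median, an alternative chosen after seeing the data, 1641, and with the block and without replicate 1, 2 or 3 it was 1288, 496 and 672. The share of higher genes was 38.8% without the block and 46.9% with it. Of 91 named genes that were called, 30 kept the call in all 6 fits with a library left out, and Pmaip1 and Fdft1 lost it in every one. The difference between the times called 1 gene with the block too, 0 genes with the stricter filter, which removes that gene, and 1 to 4 genes with a library left out. The 24 h comparison called 1 gene with the block and 1 to 20 with a library left out, alternatives chosen after seeing the data. The difference between compound and 4-OHT called 4968 genes with the block and 3604 to 4247 with a library left out. For counts that moved the cause was not tested, apart from smaller groups where a library was left out. Depth is unknown, and 3 libraries a group limit the precision.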
